A study of Mus musculus with 2 samples.

Results

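The collagen chains, the matrix metalloproteinases (Mmps) and their tissue inhibitors (Timps) were described in the mouse cell line Ba/F3 and in a clone derived from it. Members were taken by gene name from the spots that are not controls: Col, a number, a and a number, Mmp and a number, or Timp and a digit. Mmp8 and Mmp9 were left out by the same rule. This gave 65 of the 31709 genes on the array, namely 40 collagen genes, 21 Mmp genes and 4 Timp genes, read by 91 probes. Mmp1a and Mmp1b, whose names end in a letter, were counted as Mmp genes.

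Ba/F3 is a pro-B cell line that depends on interleukin-3 (IL-3) for growth, and the parental Ba/F3 cells were the control. BaF/3 (#BEB1) is a single clone that was sorted repeatedly for binding of a fusion protein of Ecrg4, a peptide precursor, with the Fc part of an antibody. Before sorting, the cells had been infected with a retroviral cDNA library made from CG4 cells, a rat oligodendrocyte precursor line, so that the infection, the sorting and the choice of 1 clone cannot be told apart. Both lines were kept in medium with serum and IL-3. Total RNA of each line was labelled with cyanine 3 and read on 1 Agilent mouse array (the 4x44K whole genome design). With a single array per line there is no replicate to set a difference against, and p-values are not given.

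Collagens are the structural proteins of the extracellular matrix. Each consists of chains that wind into a triple helix, in which glycine recurs at a fixed spacing, and many form only from the products of several genes. Mmps are zinc proteases that cut collagens and other matrix proteins, some secreted and some held at the cell membrane, and Timps bind and block them. Fibroblasts and related stromal cells are the main makers of fibrillar collagen, and blood cells are better known for releasing Mmps and binding to matrix.

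The deposited sources disagree on which array belongs to which line. Array A is the one deposited as scanner output under parental Ba/F3 and whose values stand in the column for BaF/3 (#BEB1) in the authors' table, and array B is the reverse. Over 39429 probes, the scanner signals of array A had a Pearson correlation of 0.999996 with the table's BaF/3 (#BEB1) column and of 0.982285 with its parental column. Those of array B had a correlation of 0.999998 with the parental column and of 0.982286 with the BaF/3 (#BEB1) column. Probes are not independent replicates. Every difference below is therefore the log2 signal of array A less that of array B. A negative value means more signal in the parental cells by the authors' table and more in BaF/3 (#BEB1) by the scanner output. Olr1, the gene of the scavenger receptor LOX-1 that the study cloned from BaF/3 (#BEB1), was 5.01 on this scale. The study places the higher LOX-1 transcript level in BaF/3 (#BEB1), the clone that binds Ecrg4, which is the direction of the authors' table and the reverse of the scanner output. The labels were not reassigned on the level of a gene, and both readings are kept.

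Signals are background-subtracted intensities from the scanner and their errors are the scanner's own. For differences, signals were scaled by the array's own 75th percentile, which was 1506 for array A and 1080 for array B. A probe counted as measured where the scanner software called it well above background, which held for 49.4% of the probes of array A and 49.9% of those of array B. The lowest signal so called was 27.6 for array A and 22.9 for array B. No spot was saturated. Probe brightness also depends on the probe, so levels of different genes were not compared. The labelled cell type was checked with 13 blood and pro-B cell markers that have a probe. Ptprc (CD45) and the IL-3 receptor genes Il3ra, Csf2rb and Csf2rb2 were well above background on both arrays, as were Cd79b and Vpreb1. Cd79a, Pax5, Ebf1, Rag1, Rag2 and Dntt were not, on either array. The signals of the 13 markers, not scaled between the arrays, summed to 196565 (array A) and 310243 (array B), mostly from Csf2rb and Csf2rb2. Of the 6 measured on both arrays, 4 were past 2-fold towards array B, namely Csf2rb (−1.86), Csf2rb2 (−1.60), Cd79b (−2.30) and Vpreb1 (−1.39), and the median of the 6 was −1.50. Ptprc (0.75) and Il3ra (0.40) were higher on array A. The part of these genes in the differences of the members, the larger of which also ran towards array B, was not tested.

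Most of the members were not well above background in either cell line. A probe was well above background on at least 1 array for 20 of 65 members (30.8%), against 16512 of all 31709 genes (52.1%). This held on both arrays for 12 members (18.5%), against 46.7% of all genes. The share was 37.5% for the collagens, 19.0% for the Mmps and 25% for the Timps. The 45 other members had 63 probes with signals of 5.45 to 29.96 on array A (median 7.03) and 4.62 to 24.2 on array B (median 5.93). Such genes are called dim on both arrays in what follows, and no difference can be read for them.

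**Figure D1:**
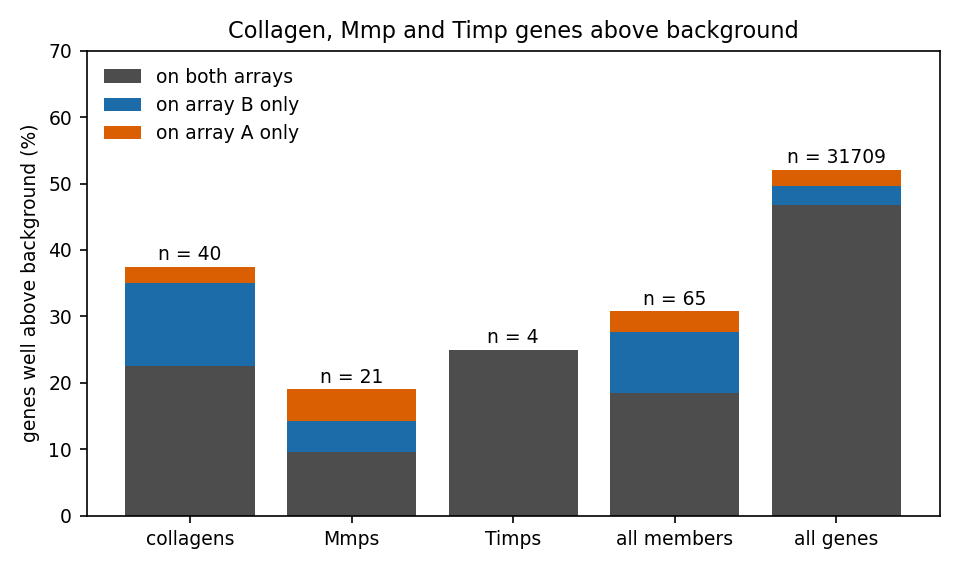
Share of genes (%) with a probe well above background on both arrays (grey), on array B only (blue) or on array A only (orange), for the 40 collagens, 21 Mmps, 4 Timps, all 65 members and all 31709 genes. The 7 genes of the array whose probes split between the arrays are not drawn in the last bar. The stacked bar reaches 30.8% for the members and about 52.1% for all genes.

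The collagens are often grouped by the assemblies that they form, and members above background were spread over these classes, which were assigned from general knowledge after the values were known. Of 11 fibril-forming collagens, 5 were above background on an array. The same was true of 3 of 6 type IV collagens, which form the network of basement membranes, and of 4 of 9 fibril-associated collagens. It was true of 1 of 4 transmembrane collagens (Col23a1), of 1 of 2 multiplexins (Col18a1) and, of the 8 others, of Col7a1 alone.

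The sequences below are those of the probes that the results turn on, as listed in the scanner output, 5′ to 3′, with the probe position in mm9. They show what each signal detects. Where a probe may lie outside the coding part, the first 30 bases of 60 are shown. Capitals mark stop triplets (TAA, TAG or TGA) in any of the frames of that strand. In the Col16a1 probe, shown whole, capitals mark glycine codons that recur every 9 bases, the repeat of a collagen triple helix. Whether a probe lies in an exon or a UTR was not looked up, as an mm9 annotation was not used here.
Col5a1, chr2:27892892-27892951, plus strand: ccTGAccttcaaaagatgttcTGAggtggt
Col18a1, first probe, chr10:76515790-76515849, minus strand: gggatacaatcctgtaTAGttcccattttt
Col18a1, second probe, chr10:76514926-76514985, minus strand: gacaatgtgtgctaTGAtgccatttcaaag
Col4a1, chr8:11199009-11199068, minus strand: ttttcgtctctggagaaactgtactatcct
Col4a2, chr8:11448840-11448899, plus strand: cagtcttccTAAaaTGAggcagagtcTAGg
Col16a1, chr4:129756457-129756516, plus strand: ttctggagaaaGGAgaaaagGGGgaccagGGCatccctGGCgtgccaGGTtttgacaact
Mmp14, chr14:55058775-55058834, plus strand: ggacagcgagtacccTAAaaacatcaaagt

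Over its 60 bases, the Col5a1 probe held a stop triplet in every frame. The Col16a1 probe held glycine codons in 5 of the 7 places of the repeat.

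Col5a1 stood apart from every other member. It encodes the α1 chain of type V collagen, which is built into type I collagen fibrils and limits their width. Its probe (NM_015734) had a signal of 396 ± 40.2 on array A and of 6909 ± 691 on array B. After scaling these were −1.93 and 2.68 on the log2 scale, a difference of −4.61 (24.3-fold higher on array B), with a scanner error of 0.21. Of the 14815 genes measured on both arrays, 7 had a larger difference towards array B. The gene has 1 probe at 1 spot, so that no second probe checks this value. Its difference was −4.39 with normexp background correction and lay between −4.69 and −4.31 under the 7 other settings run for single genes.

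The partner of Col5a1 in most type V collagen, Col5a2, was not well above background on either array. The third chain, Col5a3, had signals of 123 ± 13.6 on array A and 82.1 ± 9.54 on array B, a log2 difference of 0.10 ± 0.23. Of the type V genes, then, the 24.3-fold difference was seen for Col5a1 and not for Col5a3, whose difference lay within its scanner error, and nothing can be said of Col5a2.

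The gene whose probe comes next before that of Col5a1 on the chromosome differed in the same direction. Gm13372, a long non-coding RNA gene of unknown function that RefSeq places inside the Col5a1 interval (names from GRCm38.p6), has a probe on the opposite strand, 13.5 kb before that of Col5a1 in mm9. The probe, shown whole because it detects the second transcript of the locus, reads as follows.
Gm13372, chr2:27879382-27879441, minus strand: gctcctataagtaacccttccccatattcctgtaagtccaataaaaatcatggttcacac

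Gm13372 had signals of 91.3 on array A and 1013 on array B, a log2 difference of −3.95 (15.5-fold higher on array B), and −3.08 with normexp correction. The gene was named after its value was seen. Within 1 Mb of the Col5a1 probe lay 31 other genes with a probe, of which 12 were measured on both arrays with a median of −0.32. Of the 12, 0 reached 2-fold towards array A and 3 towards array B, namely Gm13372, Gfi1b, a transcriptional repressor of blood cells (−1.87), and Spaca9 (−1.96). Over all genes measured on both arrays, these shares were 3.85% and 7.30%. Of the 12, 4 differed towards array A and 8 towards array B, against 7211 and 7604 of all genes. The nearest gene towards array A was Mrps2 (0.30), at 432 kb, and all nearer genes above background ran towards array B. Olfm1, Ppp1r26 and Ak8 were on array B only (at least 2.79-fold, 5.30-fold and 1.63-fold). Mymk, near the edge of the window at −975 kb, was on array A alone (at least 1.57-fold). The retinoid receptor gene Rxra was among 15 genes that were dim on both arrays.

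**Figure D2:**
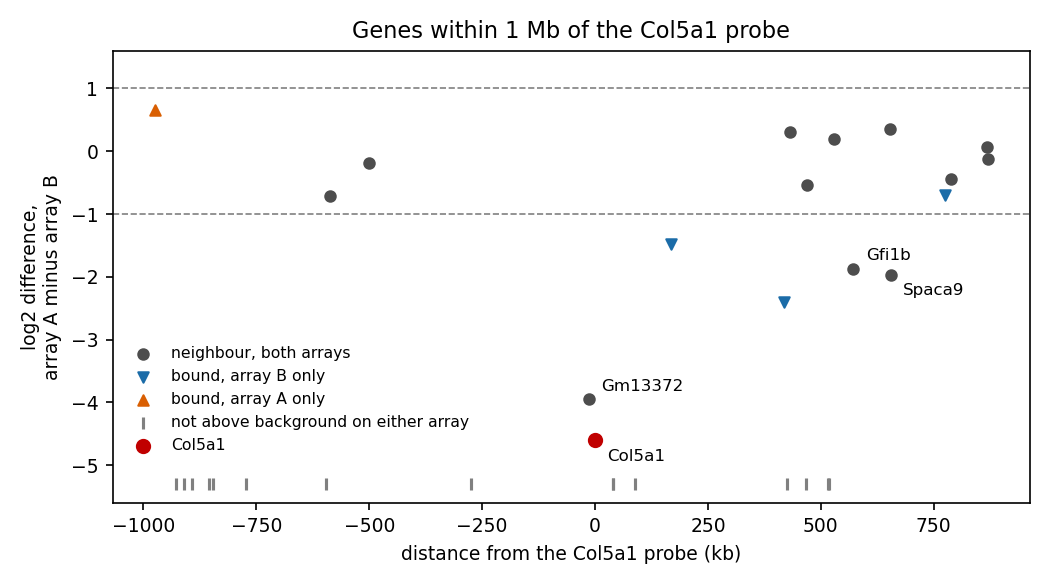
Log2 difference (array A less array B) of the genes within 1 Mb of the Col5a1 probe against the distance of their probe from it (kb, negative towards the start of the chromosome). Grey points were measured on both arrays, triangles are bounds of genes on 1 array only, ticks are genes not well above background, and dashed lines mark 2-fold. Col5a1 (−4.61) and Gm13372 (−3.95) lie below all others.

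Among the other fibril-forming collagens, Col11a2, a chain of the type XI collagen of cartilage, had signals of 314 ± 32.2 and 261 ± 26.7 on arrays A and B. Its log2 difference was −0.21 ± 0.21, and its partner Col11a1 was not well above background. Col1a1, which encodes the main chain of type I collagen, reached 25.7 ± 5.61 on array B and was not well above background on array A (15.8). This gives a bound of at least 1.30-fold towards array B. Col1a2, the other chain of type I collagen, was not well above background on either array. Col24a1, a minor fibrillar chain, read 6.67 on array A, not well above background, and 47.4 on array B, a bound of at least 2.40-fold. Col2a1, Col3a1 and Col27a1 were dim on both arrays.

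For a bound, the bright signal was divided, after scaling, by the dim probe's own signal or by the detection limit of the dim array given above, whichever was higher. Such a bound leaves out how far the dim signal lies below the limit. It also takes the bright signal without its error and depends on the background method, so a bound near 1 is weak. It was used for each gene measured on 1 array only. The scanner software had filled in a stand-in value, for a spot not above background, for Col16a1, Col24a1 and Mmp14 on array A and for Col12a1 on array B.

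Col18a1 had the next largest difference of the members measured on both arrays. It encodes a basement membrane collagen whose cut end is endostatin. Its first probe had signals of 42.4 ± 7.27 on array A and 61.1 ± 7.82 on array B, a log2 difference of −1.01 ± 0.31 (2.01-fold higher on array B). The second probe was well above background on array B only, at 26.0 and 65.6, which gives a bound of at least 3.31-fold in the same direction. With normexp correction the probes were at −0.62 and −0.98. Both probes were brighter on array B, but the first was at the 2-fold line and fell short of it with 4 other settings. Its relative Col15a1 was not well above background with any of its probes.

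Col23a1, a transmembrane collagen, had signals of 50.9 ± 7.59 and 64.4 ± 8.01, a log2 difference of −0.82 ± 0.28. This is 1.76-fold higher on array B and short of 2-fold. It came from 1 of 3 probes, as the other two were dim on both arrays. The transmembrane collagens Col13a1, Col17a1 and Col25a1 were dim on both arrays.

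Col4a1 and Col4a2 encode the chains of the most widespread type IV collagen and lie head to head on chromosome 8. The Col4a1 probe was printed at 10 spots and is the one member with a spread within the array. Its spots ran from 103 to 133 on array A (median 115) and from 95.7 to 105 on array B (median 100.1). After scaling, the log2 difference was −0.26 with a scanner error of 0.23. Col4a2 read 10.6 on array A, not well above background, and 33.4 on array B, a bound of at least 1.69-fold. Thus Col4a1 was measured on both arrays and its partner on array B only. Col4a6, which belongs to the basement membranes of a few tissues, had signals of 62.9 ± 8.64 and 43.3 ± 6.53 (0.06 ± 0.29). Col4a3, Col4a4 and Col4a5 were not well above background.

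The fibril-associated collagens sit on the surface of larger fibrils. Col20a1 had both of its probes well above background on array B only. They read 24.99 and 12.7 on array A and 80.5 and 61.8 on array B, which are bounds of at least 4.06-fold and 3.12-fold. With normexp correction these probes were at −0.91 and −0.79, short of 2-fold, so the size of the bounds depends on the background method. Col16a1 read 5.91 on array A, not well above background, and 39.2 on array B, at least 1.98-fold higher. This was 1 of its 3 probes, the one with the glycine repeat shown above. The other probes of Col16a1 were dim on both arrays. Col12a1 went the other way, at 29.8 on array A and 4.64 on array B, but too close to the limit for any bound. Col9a2, of cartilage type IX collagen, had signals of 46.9 ± 8.85 and 30.7 ± 6.72 (0.14 ± 0.42).

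Col7a1, which forms the anchoring fibrils of skin, had signals of 287 ± 29.3 and 220 ± 22.5, a log2 difference of −0.09 ± 0.21. The type VI chains Col6a1, Col6a2 and Col6a6 and the type VIII chains Col8a1 and Col8a2 were dim on both arrays, as were Col10a1 and Col28a1.

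Fewer of the Mmps were above background, and all of those are made as membrane-bound proteins. Of 7 membrane-bound Mmps, 4 were well above background on an array, against 0 of 14 secreted ones. The grouping was made after the values were known and no test was run on it. Mmp17, held by a lipid anchor, had signals of 49.7 ± 8.67 on array A and 33.4 ± 6.54 on array B (0.10 ± 0.38). Mmp23, which is made with a membrane-spanning stretch and later cut free, had signals of 84.0 ± 11.8 and 56.0 ± 8.71 (0.10 ± 0.30). Both differences lay within the scanner error.

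Mmp14, the membrane protease that cuts fibrillar collagen and activates Mmp2, read 5.75 on array A, not well above background, and 33.6 on array B, at least 1.70-fold higher. Its target Mmp2 was not well above background on either array. Mmp24 read 33.5 ± 6.93 on array A and 8.90 on array B, where it was not well above background. This gives a bound of at least 1.05-fold from 1 of its 2 probes. With normexp correction that probe was at −0.16, towards array B, so no direction can be read for Mmp24. The 17 Mmps not well above background had signals of 5.52 to 11.9 on array A and of 4.62 to 13.2 on array B. They include Mmp15, Mmp16 and Mmp25 of the membrane group.

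Of the secreted Mmps, 9 lie close together on chromosome 9, in the cluster that holds the collagenase and stromelysin genes. They are Mmp1a, Mmp1b, Mmp3, Mmp7, Mmp10, Mmp12, Mmp13, Mmp20 and Mmp27, and their 11 probes span 0.415 Mb in mm9. None of the 11 probes was well above background, with signals of 5.55 to 8.24 on array A and of 4.62 to 7.41 on array B. No difference between the lines can be read for any of these 9 genes. The remaining secreted Mmps, Mmp2, Mmp11, Mmp19, Mmp21 and Mmp28, lie elsewhere in the genome and were dim as well.

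Timp1, a secreted inhibitor of most Mmps, had signals of 36.4 ± 6.99 and 30.7 ± 5.83 on arrays A and B (−0.23 ± 0.39), a difference within the scanner error. Timp2, Timp3 and Timp4 were not well above background, with signals of 5.69 to 28.4 on array A and 4.69 to 9.97 on array B.

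Of the 12 members measured on both arrays, then, 0 reached 2-fold towards array A and 2 towards array B (Col5a1 and Col18a1). Of all 14815 genes so measured, 3.85% reached 2-fold towards array A and 7.30% towards array B. With bounds included, 0 of 20 members were past 2-fold towards array A and 4 towards array B, the further ones being Col20a1 and Col24a1. The shares of all genes on this count were 5.22% and 9.48%. With normexp correction both probes of Col20a1 fell short of 2-fold. The median difference was −0.15 over the 12 members and −0.02 over all 14815 genes. By family the median was −0.21 for the 9 collagens, 0.10 for the 2 Mmps and −0.23 for Timp1. These small values turn with the scaling. With each array scaled to its median, every difference rose by 0.29, so that the median became 0.14 over the members and 0.27 over all genes. The share of array A among all genes past 2-fold then went from 34.5% to 69.1%, and Col5a1 was the one member past 2-fold.

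**Figure D3:**
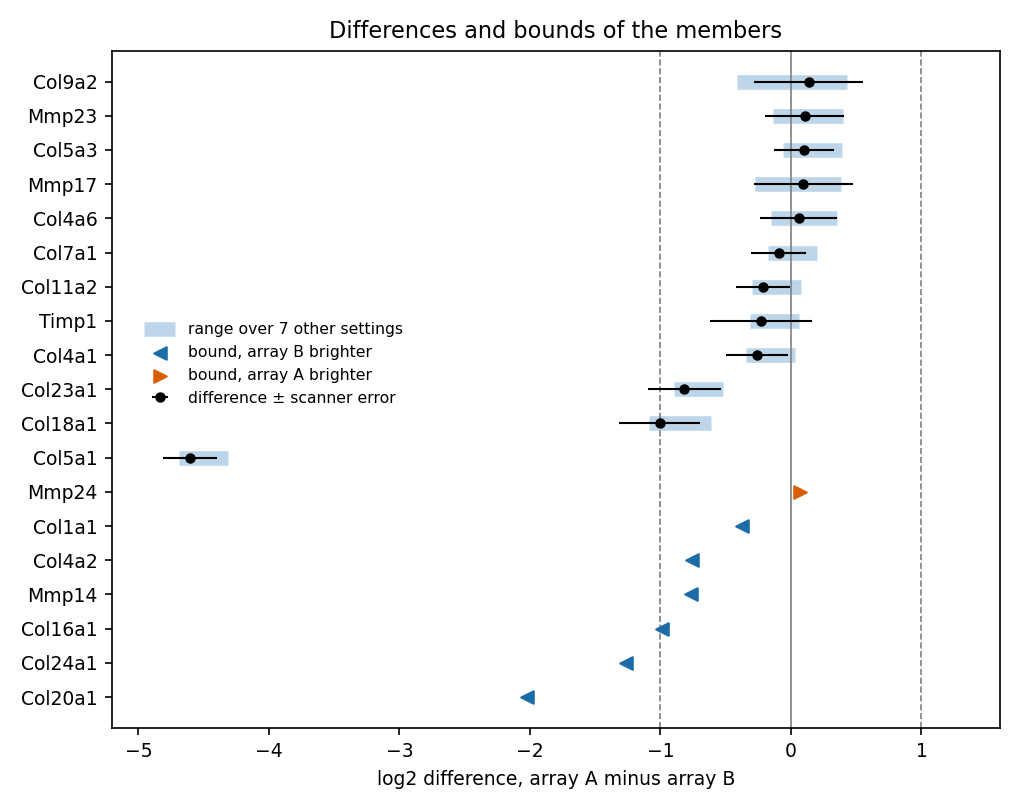
Log2 difference (array A less array B) of the 12 members measured on both arrays (black points, bars show the scanner error, pale bars the range over 7 other settings) and bounds of the members measured on 1 array only (triangles, pointing the way the true difference may extend). Dashed lines mark 2-fold. Col5a1 lies at −4.61, Col18a1 at −1.01, and the other 10 lie between −0.82 and 0.14.

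Most of these members had low signals, and genes cut at a low signal on both arrays leaned towards array B. Of the 1815 genes with a probe at or below a signal of 100 on both arrays, 11 reached 2-fold towards array A and 130 towards array B, and the median was −0.21. The cut was made before scaling, which divided signals by 1506 on array A and by 1080 on array B. A signal of 100 is therefore a higher scaled level on array B, and the cut leaves more room for differences towards that array. How much of the lean comes from the cut was not tested. Of the members measured on both arrays, Col18a1, Col23a1, Timp1, Col4a6, Col9a2, Mmp17 and Mmp23 had signals at or below 100 on both. Col18a1, Col23a1 and Timp1 differed towards array B, and Col4a6, Col9a2, Mmp17 and Mmp23 towards array A by 0.14 or less. All 6 members measured on array B only had such low signals too. Col5a1 did not. The 1815 genes were all measured on both arrays and leave out the 6 members on array B only, for which such a lean was not tested. Array B only held for 6 members and array A only for 2 (75% on array B). Over all genes these counts were 905 and 785 (53.6% on array B). Between spots of one probe, the median SD of the log2 difference was 0.16 over 4 probes with signals of 25 to 100 and 0.04 over 197 brighter ones, and it covers the array only and not differences between cultures.

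Because fibroblasts are a main source of collagen and CG4 cells the source of the cDNA library, markers of both were read on the same arrays. Of 9 fibroblast and stromal markers, Pdgfra, Pdgfrb, Dcn, Lum, Thy1, Fap, Postn and Twist1 were dim on both arrays. Acta2, the smooth muscle actin gene, had signals of 164 on array A and 1262 on array B, a log2 difference of −3.43 (10.8-fold), in the same direction as Col5a1. The signals of the list, not scaled between the arrays and mostly that of Acta2, summed to 221 (array A) and 1309 (array B). Of 8 oligodendrocyte precursor markers, Cspg4 (−0.26), Cnp (−1.12) and Mbp (−0.78) were well above background on both arrays. Olig1, Olig2, Sox10 and Pdgfra were not. The signals of the 8, not scaled between the arrays and mostly that of Mbp, summed to 5581 (array A) and 5771 (array B). After scaling, the median difference of this list was −0.52. The part of these genes in the differences of the collagens was not tested.

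Genes that make, fold and trim collagen chains were measured about as often as genes in general. Of 29 genes for collagen synthesis and crosslinking, 13 were measured on both arrays (44.8%, against 46.7% of all genes), with a median of 0.16 and with 1 past 2-fold. That gene was Pcolce, whose product helps to trim procollagen (186 on array A and 304 on array B, −1.18). P3h2, a prolyl 3-hydroxylase, was measured on array A alone (at least 2.65-fold), and Loxl3, of the crosslinking lysyl oxidases, on array B only (at least 2.41-fold). Serpinh1, the collagen chaperone of the endoplasmic reticulum, was not well above background on either array.

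Of 10 collagen receptor genes, 3 were measured and none was past 2-fold, with a median of 0.04. They were Itgb1, the shared integrin β1 chain (0.25), Ddr1, a receptor kinase for collagen (0.04), and Itga10 (−0.22). Their α partners Itga1, Itga2 and Itga11 were not well above background. Of 12 genes that activate or inhibit Mmps, 5 were measured, with a median of −0.30. Serpine2, a serine protease inhibitor, was on array B only (at least 2.20-fold). Reck, an inhibitor of Mmps at the membrane, was at 0.12.

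Of 25 other matrix genes, 9 were measured, with a median of −0.53. Fbn1, the microfibril protein (35.9 and 85.4, −1.73), and Lamb3, a laminin chain (94.8 and 149, −1.13), were past 2-fold towards array B and 0 towards array A. Fn1, which encodes fibronectin, was on array B only (at least 1.56-fold), and so was Sparc, a collagen-binding protein of the matrix (at least 1.37-fold). Of 13 Adam and Adamts proteases, 6 were measured, with a median of 0.09. Adam9, a membrane protease that sheds surface proteins, was at 2.08, with signals of 14059 and 2379 on arrays A and B. Adam12 went the other way at −1.78 (36.8 and 90.4). Over the lists, 6 of 36 measured genes were past 2-fold, with 1 towards array A (2.78%) and 5 towards array B (13.9%), beside 3.85% and 7.30% of all genes. With normexp correction, 1 Adam or Adamts protease was past 2-fold towards each array and no gene of the other lists, so Pcolce, Fbn1 and Lamb3 fell short. All genes then past 2-fold were 385 towards array A and 707 towards array B.

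**Figure D4:**
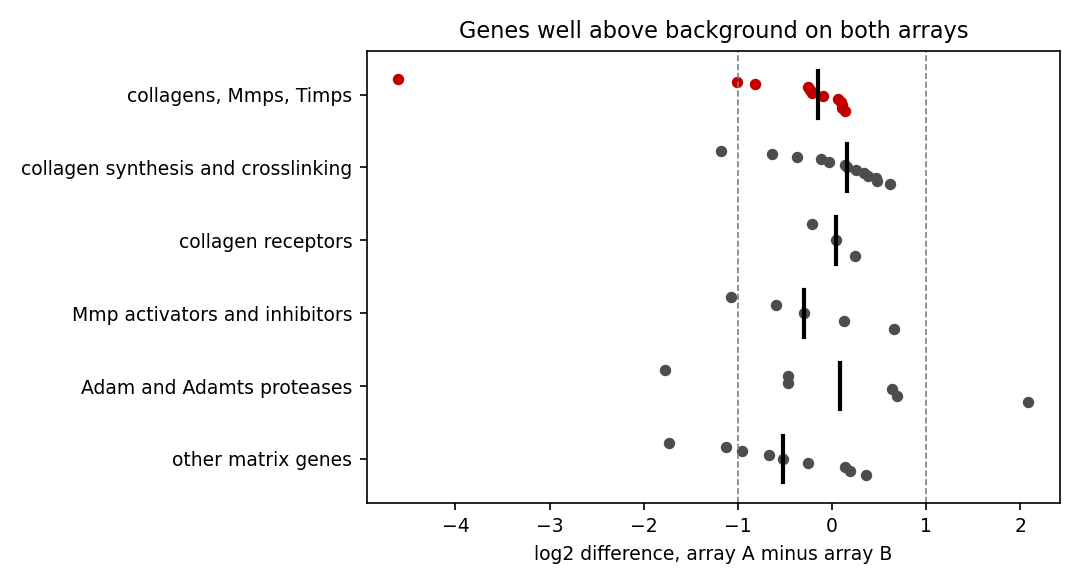
Log2 difference (array A less array B) of each gene measured on both arrays (points) for the members and for the lists of other collagen, matrix and protease genes, with the median as a black bar and 2-fold as dashed lines. Medians run from −0.53 for the other matrix genes to 0.16 for collagen synthesis, and Col5a1, at −4.61, lies beyond all genes of the lists.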

How the data were processed

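Expression in the parental Ba/F3 line and in BaF/3 (#BEB1) was measured on 1-colour Agilent arrays, 1 per line. The authors deposited each array's scanner output, whose spot intensity came from Agilent Feature Extraction 9.5.1.1 with the background subtracted, and a table that holds, per the authors' methods, log2 intensities after a floor and scaling to the 75th percentile. That table served for the label check and as an alternative.

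Control spots were dropped, which left 43020 spots of 39429 probes. Signals were divided by each array's 75th percentile, put on the log2 scale and averaged over the spots of a probe. A gene's difference is the mean over its probes well above background on both arrays. Members were found by the name in the scanner output. Other genes were named through RefSeq (GRCm38.p6): 26055 probes through their accession, 3195 through the symbol and 930 through a former symbol, while 9249 kept the file's name. Errors of differences combine the scanner's errors of both arrays. Counts past 2-fold are sizes, not tests, since there was 1 array per cell line. Precision is limited by the number of arrays. Members and lists (collagen synthesis and crosslinking, collagen receptors, Mmp activators and inhibitors, other matrix genes, Adam and Adamts proteases, and markers of blood and pro-B, fibroblast and oligodendrocyte precursor cells) were chosen with earlier results of these data known. Every member above background on an array was named, with up to 4 differences past 2-fold and the 2 largest bounds of each list. Reck, Serpinh1, the receptors and the Col5a1 neighbours were named beyond that rule. A few listed genes count in the totals of their lists but are not reported by name here.

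Alternatives were other scalings, normexp (offset 50), other filters on dim probes, leaving out outlier spots, the authors' table, the brightest probe, counting bounds, a 3-fold threshold, and updated symbols. The steps were tested on simulated arrays. The changes set there were larger than 2-fold and in genes brighter than most members, so the test does not cover the members' dim signals. Python 3.11.15, numpy 2.4.6, pandas 2.3.3, scipy 1.17.1, matplotlib 3.10.9, R 4.3.3 and limma 3.58.1 were used.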

Additional observations from a re-analysis of the deposited data

How the results depend on the processing

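Col5a1 stayed past 2-fold towards array B under every alternative run. The count of 2 members past 2-fold on array B fell to 1 (Col5a1 alone) with scaling to the median, quantile scaling, normexp correction, the authors' table or a 3-fold threshold. It rose to 4 with bounds counted, 8 where the filter on dim probes was looser and 13 without one. The count of 0 towards array A became 2 with the looser filter (Mmp24 and Timp4) and 2 with none (Col12a1 and Timp4). The members' median of −0.15 became 0.14 with scaling to the median, 0.076 with quantile scaling and 0.029 with the looser filter, which also raised the share of members above background from 30.8% to 66.2% and the members on 1 array only from 8 to 13. Genes of the other lists past 2-fold went from 6 to 3 with scaling to the median and to 2 with normexp correction. Of the 12 members measured on both arrays, 9 had their sign turned under at least 1 of 7 settings, all of them members with no 2-fold difference, and Col5a1, Col18a1 and Col23a1 did not. Taking updated symbols added Col26a1, Col6a4 and Col6a5, none well above background. No paired analysis was possible because each cell line has 1 array. Signals near the background limit what can be said of all members but Col5a1, Col7a1 and Col11a2, whose lowest signal on either array was 220.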
